A study of Homo sapiens with 6 samples.

Results

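Interferon-stimulated effector genes are the genes that a cell switches on after type I, II or III interferon has bound its receptor. The 41 genes described here were taken by name from a list of such effectors, and all 41 were found among the 20532 genes of the deposited count table. No measured value entered the list itself, although it was drawn up with earlier results of these data known. The libraries came from ACHN, an established human renal carcinoma line labelled by the submitters as clear cell renal cell carcinoma. Stable lines had been made by lentiviral transduction of short hairpin RNA: shCtrl carried a negative control hairpin, and shDNAJC2 a hairpin against DNAJC2, a ribosome-associated co-chaperone. Both groups had therefore been through lentiviral transduction, no interferon treatment is named for either, and untransduced cells were not analysed here. Each group held 3 libraries of enriched mRNA from total RNA, which the series calls biological replicates; whether they came from separate transductions or clones is not stated, so p-values measure the spread between these libraries only.

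In the classical pathway, type I interferon joins the receptor chains IFNAR1 and IFNAR2, whose kinases JAK1 and TYK2 phosphorylate STAT proteins. STAT2 and IRF9 then take part in the complex ISGF3, which binds the interferon-stimulated response element in promoters, while STAT pairs bind a palindromic site. Many of the induced proteins block a step of viral growth, and several, among them STAT2, IRF7 and IRF9, are themselves parts of the pathway. ISGF3 components can also keep a lower, constitutive level of the same genes in cells that have met no interferon, and some tumour lines hold such a level.

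Total counts ran from 17491462 to 25760291 per library, with 15900 to 16336 genes detected, and 13988 genes entered the test over the 6 libraries. Levels are given as CPM, counts scaled to the library's size with TMM factors, and values are listed in the order of libraries 1, 2 and 3 within each group; a count of 3, taken as the detection floor, was worth 0.115 to 0.179 CPM. Such a floor covers counting error only, whereas the standard errors and confidence intervals printed here come from the fit and hold the spread between libraries. DNAJC2 was at 76.7, 69.8 and 86.5 CPM across shCtrl libraries, against 51.2, 50.4 and 38.5 CPM across shDNAJC2 libraries. The groups did not overlap for the targeted gene: the knockdown mean was 60.1% of the control mean, with a log2 fold change of -0.74 (SE 0.15, n = 3 per group), an edgeR adjusted p of 0.429 and an exact two-sided permutation p of 0.1, the smallest that 3 against 3 libraries allow. Without shCtrl 3 the log2 fold change of DNAJC2 was -0.65 (edgeR adjusted p = 0.00799), and DESeq2 gave -0.73 over 6 libraries (adjusted p = 0.0364). Of 9 renal epithelial markers, CDH16 was at 0 and PAX2 and LHX1 had at most 10 counts in any library, while KRT8, KRT18, CDH6 and CA12 were expressed and PAX8, a renal lineage factor, was at 2.82 to 4.64 CPM.

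The library labelled shCtrl 3 stood apart from the other control libraries. For 74.6% of all genes tested its log2 level lay nearer to the mean of the knockdown libraries than to the mean of shCtrl 1 and 2, yet its DNAJC2 level was the highest of the 6. For the interferon-stimulated genes this held for 40 of 41, the exception being LGALS3BP. Fold changes are therefore given over all 6 libraries and again without shCtrl 3, a choice made with the data already in view. The second comparison rests on 2 control libraries against 3. Leaving out a control library that lies near the knockdown libraries favours a gap between the groups. Calls and p-values without shCtrl 3 therefore describe that gap and are no independent test of it.

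The interferon-stimulated genes were high in shCtrl 1 and 2 and lower in the other 4 libraries. Added together they reached 5038, 5947 and 2584 CPM across shCtrl libraries, against 2650, 2617 and 2935 CPM across shDNAJC2 libraries. They took 0.542%, 0.626% and 0.240% of all counts in the control libraries and 0.255%, 0.250% and 0.303% in the others. Against the mean of shCtrl 1 and 2, the median gene of the group stood at -1.54 on the log2 scale in shCtrl 3 and at -1.39, -1.46 and -0.997 in shDNAJC2 1, 2 and 3. The same median over all genes tested lay between -0.02 and 0.01 in every library. In bulk RNA, fewer cells with an active program and less RNA per cell cannot be told apart.

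**Figure D1:**
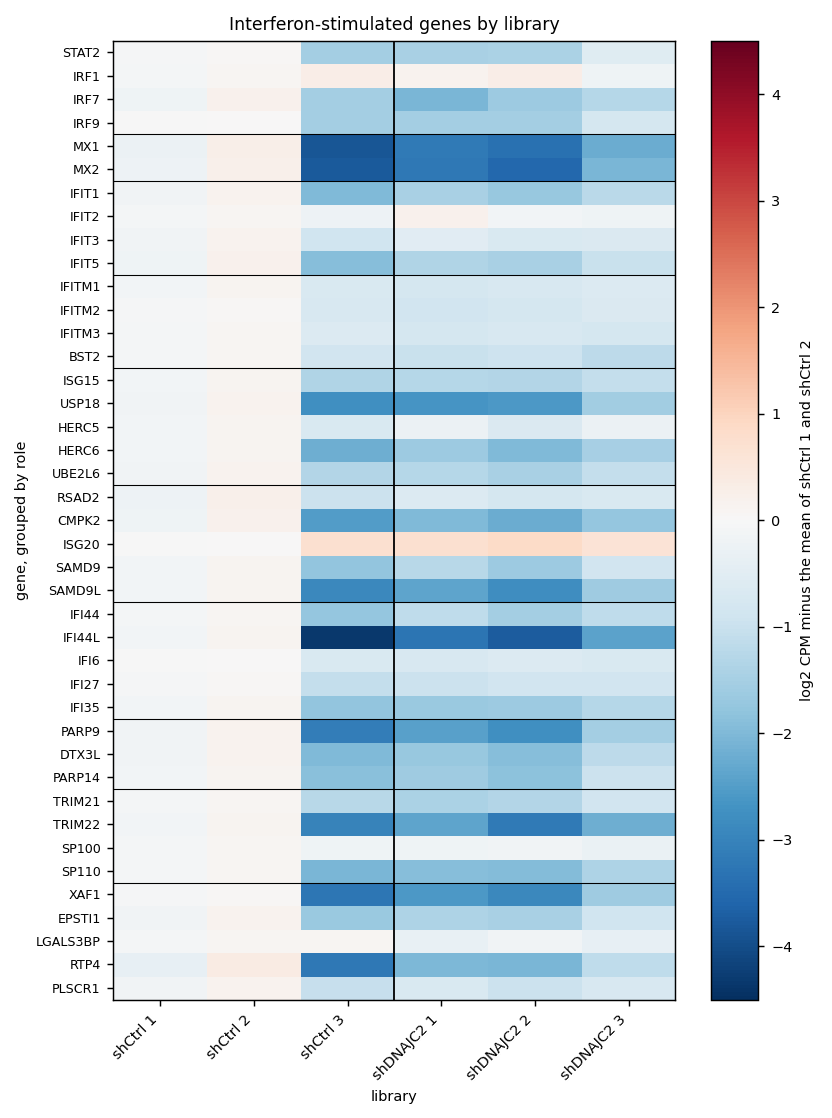
Level of each of the 41 genes in each library, as log2 CPM minus the mean of shCtrl 1 and 2 (colour), with genes grouped by role and separated by lines. The columns of shCtrl 3 and the knockdown libraries are mostly blue, and IRF1, IFIT2, SP100, LGALS3BP and ISG20 stay near white or turn red.

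Over all 6 libraries no gene of the group passed the test in either direction, as was so for the whole table (edgeR quasi-likelihood test, Benjamini-Hochberg adjusted, 0% of 13988 genes called higher and 0% lower), and the smallest adjusted p was 0.429. Before adjustment, 18 of the 41 had p under 0.05, all of them lower, against 11.3% of all genes in either direction and 7.33% lower. limma-voom likewise passed 0 of the 41 (4 before adjustment, all lower). DESeq2 passed 0 of the 41 as well, with 26 before adjustment and a smallest adjusted p of 0.150, where it called 0.0429% of all genes higher and 0.207% lower. The share of all genes before adjustment was not taken for limma-voom or DESeq2, so their counts of 4 and 26 have no background beside them. The log2 fold change was negative for 39 of 41 genes, against 52.3% of all genes, and its median was -0.87 against -0.02. The control and knockdown libraries were separated without overlap for 3 genes, IFITM3, BST2 and LGALS3BP, all lower in the knockdown; that is 7.32% of the group beside 8.43% of all genes, a share near the background. For no gene of the group were the knockdown libraries higher without overlap, against 7.33% of all genes.

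Without shCtrl 3, 35 of 41 genes fell and 1, ISG20, rose past an edgeR adjusted p of 0.05, where 17.0% of 14201 genes were called lower and 17.8% higher. The median log2 fold change was -1.24, against -0.01 for all genes, and the range ran from -3.01 for IFI44L to 0.74 for ISG20. At least 2-fold lower were 27 genes, against 5.27% of all genes, and at least 4-fold lower were 8, against 0.789%. The genes that did not pass were IRF1, IFIT2, HERC5, SP100 and LGALS3BP. When any other single library was left out instead, 0 of the 41 passed in either direction.

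**Figure D2:**
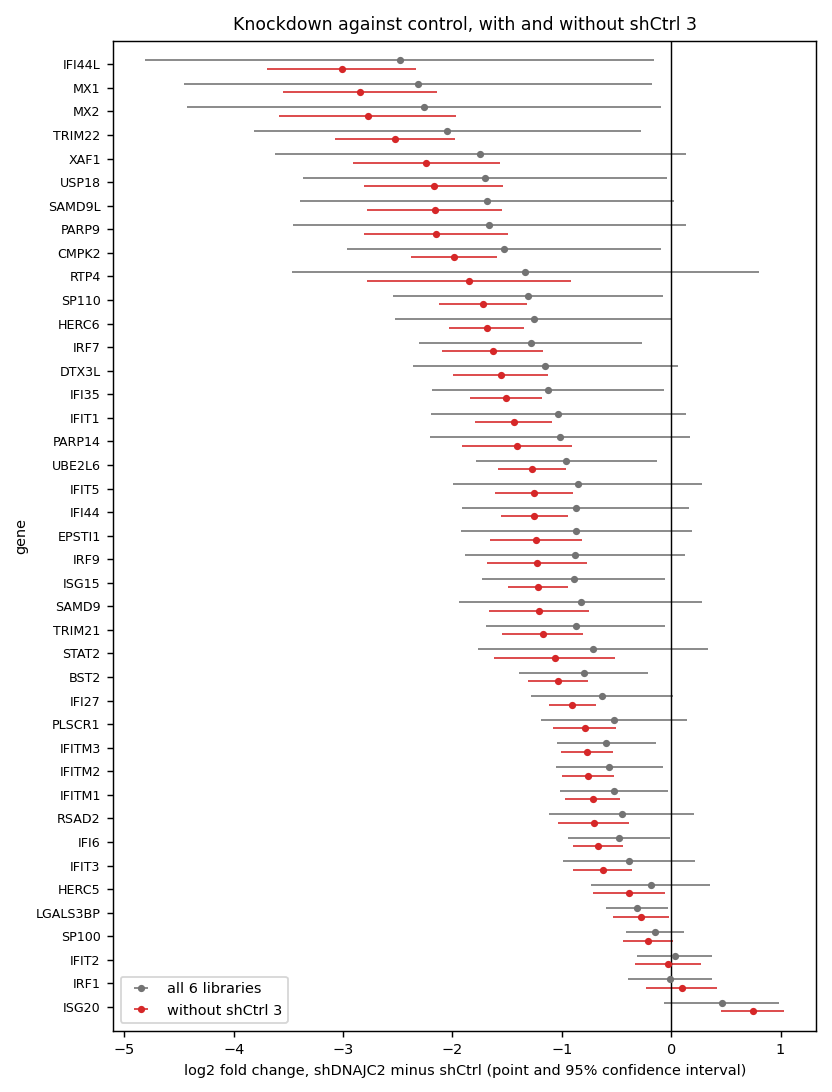
Log2 fold change of each gene, shDNAJC2 minus shCtrl, with its 95% confidence interval, over all 6 libraries (grey) and without shCtrl 3 (red), sorted by the latter. The estimates run from -3.01 to 0.74 without shCtrl 3, and the grey intervals are wider for the genes with the lowest estimates.

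The interferon-stimulated response element was searched in RefSeq promoter windows (build GRCh38.p14), each reaching from 250 bases before to 50 bases after an annotated start, as GAAA, any 2 bases and GAAA (the GAAA pair), and the palindromic STAT site as TTCNNNGAA. Both were searched on both strands. Windows were matched by symbol for 35 of the 41 genes, all but IRF7, MX2, IFIT2, IFITM2, USP18 and TRIM22. The GAAA pair lay in a window of 24 of these 35 genes (68.6%), against 4.38% of 27305 genes in the RefSeq table and 4.06% of the 10963 tested genes with a window. TTCNNNGAA lay in windows of 11 of the 35 (31.4%), against 9.38% and 8.74%. In BST2, EPSTI1, IFI27, IFITM1 and MX1 matches to the pair of motifs shared bases. A match is a run of letters and not a measured binding site.

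Sequences are shown for genes whose levels carry the results below. The first set gives the 250 bases before the start, 5′ to 3′ along the gene, with matches in capitals, for the gene with the lowest fold change (IFI44L, chr1:78620198-78620447, plus strand), for a textbook target of ISGF3 (IFIT1, chr10:89392373-89392622, plus strand), and for a pair of genes that did not pass the test, LGALS3BP (chr17:78979924-78980173, minus strand) and IRF1 (chr5:132490774-132491023, minus strand). Capitals mark the GAAA pair or its reverse complement, except in IRF1, whose window had none and where they mark TTCNNNGAA.
IFI44L: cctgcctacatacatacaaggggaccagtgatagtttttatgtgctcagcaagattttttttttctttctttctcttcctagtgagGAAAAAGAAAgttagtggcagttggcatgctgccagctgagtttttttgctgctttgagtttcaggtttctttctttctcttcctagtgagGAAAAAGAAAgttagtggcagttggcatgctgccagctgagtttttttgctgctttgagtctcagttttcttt
IFIT1: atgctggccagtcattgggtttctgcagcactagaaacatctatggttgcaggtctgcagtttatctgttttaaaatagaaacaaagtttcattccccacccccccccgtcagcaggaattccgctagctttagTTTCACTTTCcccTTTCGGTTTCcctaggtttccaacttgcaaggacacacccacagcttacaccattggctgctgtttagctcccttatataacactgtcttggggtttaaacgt
LGALS3BP: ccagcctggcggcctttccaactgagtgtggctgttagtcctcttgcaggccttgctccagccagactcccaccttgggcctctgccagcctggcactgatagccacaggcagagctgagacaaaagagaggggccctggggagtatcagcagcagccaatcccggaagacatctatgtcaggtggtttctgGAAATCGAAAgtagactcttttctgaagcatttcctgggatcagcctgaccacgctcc
IRF1: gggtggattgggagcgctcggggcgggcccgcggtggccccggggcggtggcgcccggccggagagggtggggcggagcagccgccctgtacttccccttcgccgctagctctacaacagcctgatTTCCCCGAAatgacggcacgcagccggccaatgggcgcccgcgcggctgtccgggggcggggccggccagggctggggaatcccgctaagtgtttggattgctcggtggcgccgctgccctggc
The IFI44L window held an exact repeat of 85 bases, whose copies start at positions -189 and -98 relative to the gene's start and each carry the same match to the GAAA pair. Among the 35 genes the next longest exact repeat within a window was 29 bases, in IFI6. Matches thus occurred both in the window of IFI44L, which had the lowest fitted fold change, and in that of LGALS3BP, whose fold change was small.

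The second set shows only the bases around the matches, with the same marking, for ISG15 (chr1:1013372-1013411, plus strand), IFITM1 (chr11:313988-314055, plus strand), IFITM3 (chr11:320874-320924, minus strand), BST2 (chr19:17405733-17405772, minus strand), IFI6 (chr1:27672264-27672360, minus strand), HERC5 (chr4:88456982-88457066, plus strand), ISG20 (chr15:88638935-88638968, plus strand), IFI44 (chr1:78649759-78649792, plus strand), SAMD9 (chr7:93118094-93118127, minus strand), EPSTI1 (chr13:42992270-42992303, minus strand) and DTX3L (chr3:122564320-122564353, plus strand). They cover genes with large and small negative log2 fold changes, HERC5 among those that did not pass the test, and the gene that rose.
ISG15: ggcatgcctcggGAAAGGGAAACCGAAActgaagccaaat
IFITM1: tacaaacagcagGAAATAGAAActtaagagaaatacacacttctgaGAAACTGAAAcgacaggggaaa
IFITM3: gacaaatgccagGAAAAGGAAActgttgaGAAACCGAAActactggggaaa
BST2: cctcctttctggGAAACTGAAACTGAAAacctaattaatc
IFI6: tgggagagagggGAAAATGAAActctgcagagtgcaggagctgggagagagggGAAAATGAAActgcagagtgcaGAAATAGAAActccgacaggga
HERC5: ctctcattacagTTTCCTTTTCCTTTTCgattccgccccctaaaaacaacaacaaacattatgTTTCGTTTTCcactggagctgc
ISG20: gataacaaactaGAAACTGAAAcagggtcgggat
IFI44: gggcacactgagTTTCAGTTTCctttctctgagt
SAMD9: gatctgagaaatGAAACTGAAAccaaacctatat
EPSTI1: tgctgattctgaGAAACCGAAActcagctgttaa
DTX3L: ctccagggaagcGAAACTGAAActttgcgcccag
Of those shown, ISG15, BST2 and HERC5 carried matches that overlap each other, and 13 of the 35 genes had at least 2 matches in a window. The match of DTX3L, chr3:122564332-122564341, was also the match of PARP9, which starts close by on the other strand. ISG20, the only gene of the group that rose without shCtrl 3, carried the same letters as IFI44 on the opposite strand.

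**Figure D3:**
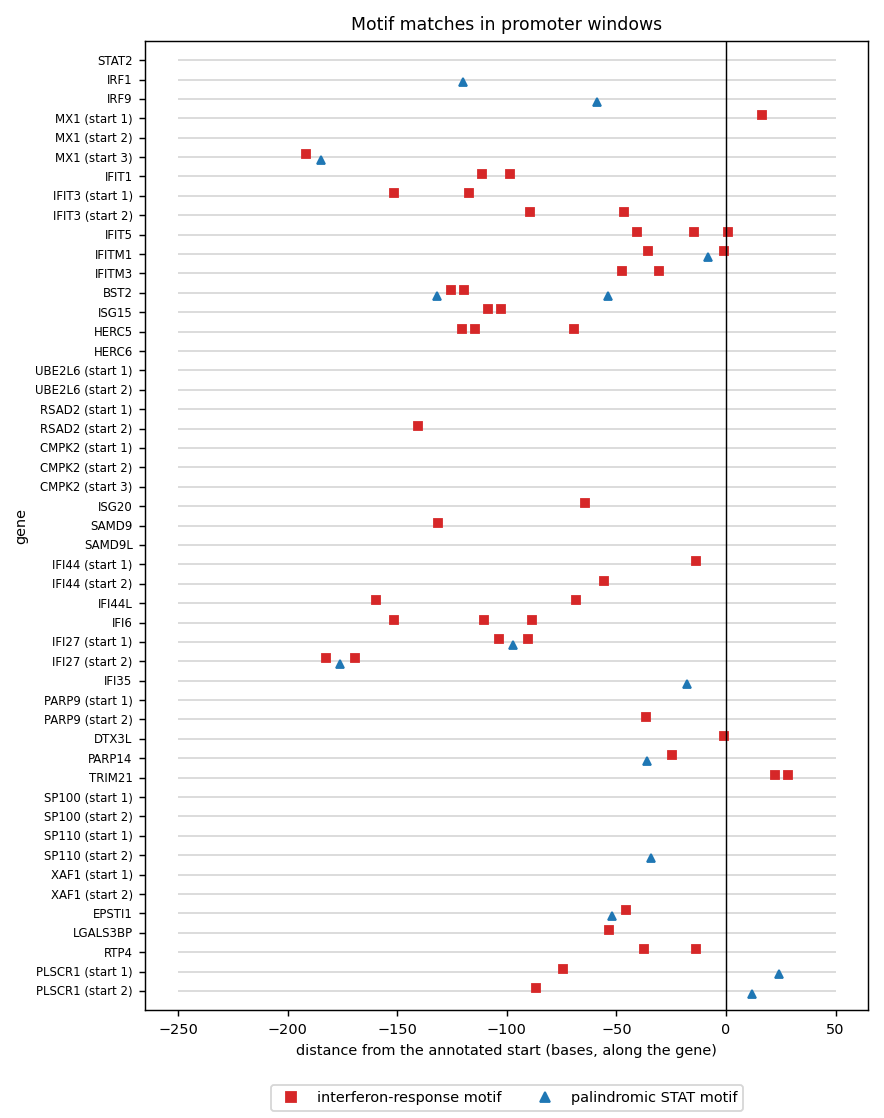
Position of each match to the GAAA pair (red squares, the interferon-response motif) and each TTCNNNGAA match (blue triangles, the palindromic STAT motif) by distance from the annotated start in bases, for every RefSeq promoter window of the 35 genes. Squares appear for 24 genes, 13 of them with at least 2 in a window.

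The responses of genes with and without a match overlapped. The median log2 fold change of the 24 genes with the GAAA pair was -0.84 over 6 libraries and -1.19 without shCtrl 3, and that of the 11 genes without was -1.13 and -1.51. Without shCtrl 3, 21 of the 24 and 9 of the 11 were called lower (edgeR, adjusted p under 0.05), against 17.0% of all genes. Genes outside the group that carry the GAAA pair were not compared. The 11 include IRF1, IRF9, STAT2, CMPK2, SAMD9L and XAF1.

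Of the transcription factors in the group, STAT2 and IRF9, both parts of ISGF3, were at their lowest in shCtrl 3 and in shDNAJC2 1 and 2. STAT2 (chr12:56341597-56360155, minus strand) was at 138, 147 and 49.8 CPM across shCtrl libraries, against 51.9, 53.1 and 98.5 CPM across shDNAJC2 libraries. Its shDNAJC2 3 level lay between those of the other knockdown libraries and those of shCtrl 1 and 2. The log2 fold change was -0.72 (SE 0.44, edgeR adjusted p = 0.467) over 6 libraries and -1.07 (SE 0.24, adjusted p = 0.0113) without shCtrl 3. IRF9 was at 116, 118 and 40.1 CPM in shCtrl cells, against 41.02, 40.8 and 67.6 CPM in shDNAJC2 cells, again lowest in shCtrl 3 and highest of the knockdown in shDNAJC2 3, with log2 fold changes of -0.88 and -1.23 (adjusted p = 0.432 and 0.00262). All 50-base stretches of the IRF9 transcript also occur in an overlapping readthrough gene model, AL136295.5, so the authors' counting could have divided its reads.

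IRF7, which amplifies interferon production and is itself induced by ISGF3, was at 42.0, 54.7 and 16.7 CPM across shCtrl libraries, against 11.4, 15.5 and 19.5 CPM across shDNAJC2 libraries. Only shDNAJC2 3 lay above shCtrl 3, and all knockdown libraries lay below shCtrl 1 and 2. The log2 fold change was -1.29 over 6 libraries (edgeR adjusted p = 0.429), and IRF7 fell without shCtrl 3 (-1.63, SE 0.21, adjusted p = 0.000843). IRF1, a factor that answers chiefly to interferon gamma and inflammatory signals, did not share this order. It was at 59.0, 68.3 and 78.3 CPM in shCtrl cells, against 70.5, 77.2 and 56.0 CPM in shDNAJC2 cells. The groups overlapped, and the 95% confidence interval of the log2 fold change was -0.40 to 0.37 over 6 libraries and -0.23 to 0.42 without shCtrl 3.

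The MX proteins, dynamin-like GTPases that trap viral nucleocapsids, differed more between libraries than most of the group. MX1 (ENSG00000157601) was at 400, 565 and 33.0 CPM across shCtrl libraries, against 51.9, 45.8 and 102 CPM across shDNAJC2 libraries. MX2 was at 85.8, 118 and 7.32 CPM in shCtrl cells, against 10.7, 8.67 and 24.4 CPM in shDNAJC2 cells. In both genes shCtrl 3 was the lowest library of all, shDNAJC2 3 was the highest of the knockdown, and the groups overlapped only through shCtrl 3. Over 6 libraries the log2 fold changes were -2.32 (SE 0.90) and -2.26 (SE 0.91), both with an edgeR adjusted p of 0.429. Without shCtrl 3 both genes fell, with log2 fold changes of -2.85 and -2.77 (adjusted p = 0.000473 and 0.000913).

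The IFIT proteins bind foreign or incompletely capped RNA and are encoded side by side on chromosome 10. IFIT1 was at 220, 280 and 63.0 CPM across shCtrl libraries, against 90.5, 76.7 and 108 CPM across shDNAJC2 libraries. Its neighbour IFIT2, at 118, 135 and 109 CPM in shCtrl cells, against 144, 116 and 110 CPM in shDNAJC2 cells, showed no such gap. For IFIT1 every knockdown library lay between shCtrl 3 and the other controls, whereas for IFIT2 the groups were interleaved. Without shCtrl 3, IFIT1 (log2 fold change -1.44, SE 0.16, edgeR adjusted p = 0.000456), IFIT5 (-1.26, adjusted p = 0.000851) and IFIT3 (-0.63, adjusted p = 0.00487) fell. Over 6 libraries these 3 were at -1.03, -0.86 and -0.39 and did not pass. The interval of IFIT2 without shCtrl 3 was -0.33 to 0.27, with an adjusted p of 0.869. IFIT3, which stabilizes IFIT1 in complexes, was at 221, 273 and 131 CPM in shCtrl cells, against 170, 152 and 156 CPM in shDNAJC2 cells, and IFIT5 at 52.3, 66.9 and 15.7 CPM, against 23.2, 21.7 and 29.6 CPM. In both, as for IFIT1, every knockdown library lay between shCtrl 3 and the other controls.

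The IFITM genes changed less in fold than most of the group and were among its most abundant per kilobase, whereas BST2 was at middling levels. The IFITM proteins hinder the fusion of viral with cellular membranes, and BST2 tethers budding virions to the cell. IFITM3 (ENSG00000142089) was at 466, 530 and 323 CPM across shCtrl libraries, against 287, 298 and 290 CPM across shDNAJC2 libraries. BST2 was at 40.9, 47.3 and 24.1 CPM in shCtrl cells, against 21.9, 23.0 and 19.5 CPM in shDNAJC2 cells. In both genes each knockdown library lay below each control, with shCtrl 3 only slightly above them. The log2 fold change of IFITM3 was -0.59 (95% confidence interval -1.04 to -0.14) over 6 libraries and that of BST2 -0.80 (-1.39 to -0.22), each with an edgeR adjusted p of 0.429. Without shCtrl 3 these were -0.77 and -1.04 (adjusted p = 0.00117 and 0.000650).

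IFITM1 was at 284, 336 and 191 CPM in shCtrl cells, against 179, 186 and 200 CPM in shDNAJC2 cells, and IFITM2 at 112, 123 and 71.4 CPM, against 64.4, 67.2 and 75.7 CPM. For both, shCtrl 3 fell inside the range of the knockdown libraries. Without shCtrl 3 their log2 fold changes were -0.72 and -0.76 (edgeR adjusted p = 0.00206 and 0.00123), and over 6 libraries -0.52 and -0.57 (both 0.429). IFITM1, IFITM2 and IFITM3 are related genes side by side on chromosome 11, and 39.0% of the 50-base stretches of IFITM1 also occur in transcripts of IFITM2, whose annotated model overlaps it on the same strand, so the split of reads among these 3 genes is uncertain.

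ISG15, a ubiquitin-like protein that is attached to other proteins and also secreted, was at 240, 291 and 103 CPM across shCtrl libraries, against 109, 107 and 126 CPM across shDNAJC2 libraries. USP18, which removes ISG15 and also damps signalling at IFNAR2, was at 67.9, 83.0 and 10.9 CPM in shCtrl cells, against 11.9, 12.5 and 25.1 CPM in shDNAJC2 cells. In both, shCtrl 3 was the lowest library. UBE2L6, the conjugating enzyme for ISG15, was at 95.6, 119 and 43.1 CPM, against 43.3, 39.0 and 50.4 CPM, with shCtrl 3 inside the knockdown range. HERC5, the human ligase for ISG15, was at 43.7, 53.2 and 29.6 CPM in shCtrl cells, against 40.2, 30.8 and 39.9 CPM in shDNAJC2 cells, so that shDNAJC2 1 and 3 came close to shCtrl 1. The related ligase HERC6 was at 71.8, 86.4 and 17.2 CPM, against 25.3, 19.9 and 28.1 CPM, with shCtrl 3 lowest. Without shCtrl 3, ISG15 (log2 fold change -1.22, edgeR adjusted p = 0.000308), USP18 (-2.17, adjusted p = 0.000911), UBE2L6 (-1.27, adjusted p = 0.000441) and HERC6 (-1.69, adjusted p = 0.000208) fell. HERC5, at -0.38 (95% confidence interval -0.71 to -0.05, adjusted p = 0.0679), did not pass. Over 6 libraries the log2 fold changes of ISG15, USP18, UBE2L6, HERC6 and HERC5 were -0.89, -1.70, -0.96, -1.26 and -0.19, none of them past the test. Of the USP18 transcript, 23.0% of 50-base stretches also occur in its copy USP41.

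**Figure D4:**
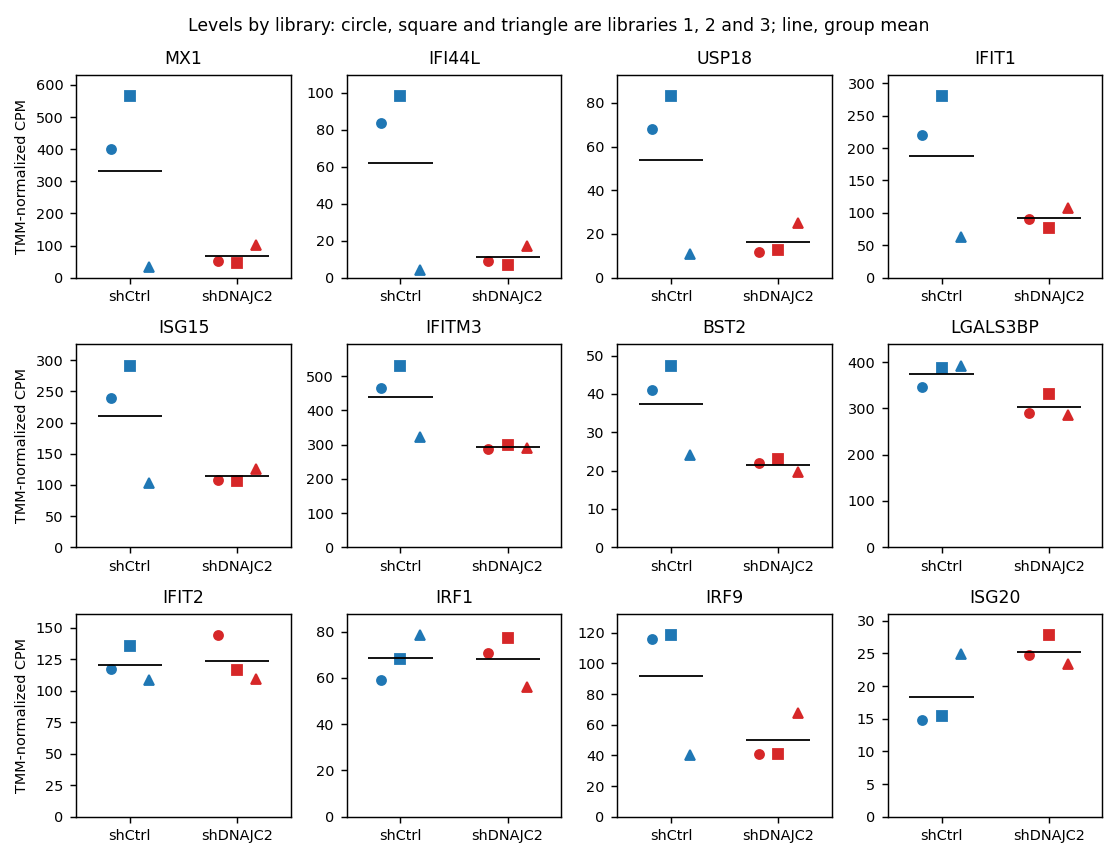
TMM-normalized CPM of 12 of the genes in each library; circles, squares and triangles are libraries 1, 2 and 3 of shCtrl (blue) and shDNAJC2 (red), horizontal lines are group means, and each axis starts at 0. The blue triangle, shCtrl 3, lies at or near the red points for MX1, IFI44L, USP18, IFIT1, ISG15 and IRF9, and above them for IFITM3, BST2 and LGALS3BP.

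Of the nucleotide and RNA enzymes, RSAD2 (viperin) makes a chain-terminating nucleotide and CMPK2 is a mitochondrial nucleotide kinase encoded next to it. CMPK2 was at 29.1, 37.4 and 5.77 CPM across shCtrl libraries, against 8.25, 6.94 and 9.83 CPM across shDNAJC2 libraries. RSAD2 was at 34.5, 46.6 and 20.5 CPM in shCtrl cells, against 26.3, 23.0 and 24.9 CPM in shDNAJC2 cells. Both had shCtrl 3 as the lowest library, but their log2 fold changes without shCtrl 3 were -1.98 and -0.71 (edgeR adjusted p = 0.000191 and 0.00670), and over 6 libraries -1.53 and -0.45 (0.429 and 0.466). The annotation places this pair, and 18 of the 41 genes in all, in overlap with a gene on the other strand, and whether the authors' counting used strand is not given in the sources used here.

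ISG20, an exonuclease that degrades RNA, ran the other way. It was at 14.8, 15.4 and 24.9 CPM across shCtrl libraries, against 24.8, 27.8 and 23.3 CPM across shDNAJC2 libraries. shCtrl 3 again sat among the knockdown libraries, here well above shCtrl 1 and 2. The log2 fold change was 0.46 (95% confidence interval -0.06 to 0.99, edgeR adjusted p = 0.430) over 6 libraries and 0.74 (SE 0.13, adjusted p = 0.00337) without shCtrl 3. The paired genes SAMD9 and SAMD9L, which restrict poxviruses, followed the main order. SAMD9L was at 40.6, 48.8 and 5.90 CPM in shCtrl cells, against 8.56, 6.34 and 14.5 CPM in shDNAJC2 cells, and SAMD9 at 28.9, 33.7 and 9.08 CPM, against 13.2, 9.93 and 17.1 CPM. Without shCtrl 3 both fell, with log2 fold changes of -2.16 and -1.21 (adjusted p = 0.000848 and 0.00280), against -1.69 and -0.83 over 6 libraries (0.429 and 0.452).

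IFI44L and IFI44 are adjacent genes on chromosome 1 whose proteins resemble GTPases. IFI44L (ENSG00000137959) was at 83.6, 98.1 and 4.39 CPM across shCtrl libraries, against 9.24, 6.64 and 17.1 CPM across shDNAJC2 libraries. IFI44 was at 83.5, 93.6 and 26.3 CPM in shCtrl cells, against 40.1, 30.5 and 40.3 CPM in shDNAJC2 cells. The pair had like levels in shCtrl 1 and 2 and parted in the other 4 libraries, where IFI44L stood much lower. Without shCtrl 3 the log2 fold changes were -3.01 (SE 0.30, edgeR adjusted p = 0.000316) and -1.25 (SE 0.14, adjusted p = 0.000456), and over 6 libraries -2.48 and -0.87.

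IFI6, a small protein that restricts flaviviruses, was at 522, 547 and 334 CPM across shCtrl libraries, against 327, 350 and 330 CPM across shDNAJC2 libraries. IFI27, a mitochondrial protein, was at 203, 220 and 102 CPM in shCtrl cells, against 107, 116 and 116 CPM in shDNAJC2 cells. In both the 4 libraries other than shCtrl 1 and 2 lay close together. IFI35, which acts with NMI, was at 59.5, 71.5 and 19.2 CPM, against 20.5, 21.2 and 27.1 CPM. Without shCtrl 3 all 3 fell (log2 fold changes -0.67, -0.90 and -1.51, edgeR adjusted p = 0.00190, 0.000413 and 0.000272), and over 6 libraries they were at -0.48, -0.63 and -1.13 (each 0.429).

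PARP9 and DTX3L form a complex that joins ADP-ribose and ubiquitin chemistry, and PARP14 is a related ADP-ribosyltransferase. PARP9 was at 86.7, 108 and 11.2 CPM across shCtrl libraries, against 17.6, 14.1 and 33.0 CPM across shDNAJC2 libraries. DTX3L, its partner and divergent neighbour, was at 117, 143 and 32.4 CPM in shCtrl cells, against 39.8, 34.6 and 57.4 CPM in shDNAJC2 cells. In both, shCtrl 3 was lowest and shDNAJC2 3 the highest of the knockdown. PARP14 was at 139, 162 and 40.6 CPM, against 49.6, 41.7 and 77.7 CPM, again in this order. Without shCtrl 3 the 3 genes fell (log2 fold changes -2.15, -1.56 and -1.41, edgeR adjusted p = 0.00114, 0.000789 and 0.00217), and over 6 libraries they were at -1.66, -1.15 and -1.02 (0.429, 0.429 and 0.433).

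Among the TRIM and nuclear body proteins, TRIM22, a ubiquitin ligase with antiviral activity, was at 17.8, 21.0 and 2.30 CPM across shCtrl libraries, against 3.65, 2.03 and 4.18 CPM across shDNAJC2 libraries. SP110 was at 41.9, 48.3 and 10.7 CPM in shCtrl cells, against 11.7, 11.6 and 17.3 CPM in shDNAJC2 cells, and TRIM21, a cytosolic antibody receptor, at 38.4, 43.3 and 17.2 CPM, against 15.3, 16.4 and 22.2 CPM. All 3 had shCtrl 3 among or next to the knockdown libraries. SP100, a constitutive part of PML nuclear bodies, was at 105, 120 and 97.5 CPM, against 99.1, 99.5 and 92.3 CPM, and its libraries overlapped. Without shCtrl 3, TRIM22 (log2 fold change -2.53), SP110 (-1.72) and TRIM21 (-1.18) fell with edgeR adjusted p of 0.000268, 0.000369 and 0.00128, while SP100, at -0.21, had an adjusted p of 0.129. Over 6 libraries the 4 were at -2.05, -1.31, -0.87 and -0.15, none past the test.

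The remaining genes have mixed roles. XAF1, a pro-apoptotic partner of XIAP, was at 38.4, 40.9 and 4.06 CPM across shCtrl libraries, against 6.58, 5.20 and 12.9 CPM across shDNAJC2 libraries, and fell without shCtrl 3 (log2 fold change -2.24, edgeR adjusted p = 0.00104). EPSTI1 was at 26.8, 34.2 and 9.41 CPM, against 11.5, 10.9 and 16.0 CPM, and PLSCR1, a phospholipid scramblase, at 105, 130 and 57.4 CPM, against 72.9, 59.9 and 70.2 CPM. Each had shCtrl 3 as its lowest library, and both fell without it (-1.24 and -0.79, adjusted p = 0.00179 and 0.00239). RTP4, a Golgi chaperone with antiviral activity, had only 28, 53 and 2 counts in the controls and 6, 5 and 16 counts in the knockdown, so its values carry a wide counting error; its log2 fold change without shCtrl 3 was -1.85 (SE 0.41, adjusted p = 0.00999). Over 6 libraries XAF1, EPSTI1, PLSCR1 and RTP4 were at -1.75, -0.87, -0.53 and -1.34 on the log2 scale, none past the test.

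LGALS3BP, a secreted glycoprotein that binds galectins, was the 1 gene for which shCtrl 3 kept with its own group. It was at 346, 387 and 392 CPM across shCtrl libraries, against 291, 331 and 285 CPM across shDNAJC2 libraries. Each knockdown library was below each control. The log2 fold change was -0.31 (95% confidence interval -0.60 to -0.03, edgeR adjusted p = 0.429) over 6 libraries and -0.27 (adjusted p = 0.0890) without shCtrl 3.

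Per kilobase of transcript, the levels in shCtrl 1 and 2 put IFI6 first at a mean of 635 CPM per kilobase, followed by IFITM3 at 617, IFITM1 at 363 and ISG15 at 337. RTP4, at 1.02, was last. The 8 genes that fell at least 4-fold without shCtrl 3 (MX1, MX2, USP18, SAMD9L, IFI44L, PARP9, TRIM22 and XAF1) had a median level of 14.9 CPM per kilobase in shCtrl 1 and 2. The 8 genes that fell less than 2-fold (IFIT3, IFITM1, IFITM2, IFITM3, RSAD2, IFI6, IFI27 and PLSCR1) had a median of 115, and the 19 between them 22.2. MX1, at 139, was an exception to this order, and the classes overlapped. RSAD2, which fell less than 2-fold, was at 11.5, and the 19 genes in between ran from 1.02 (RTP4) to 337 (ISG15). These classes were made from the fold change itself, and their values are a description.

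The same classes differed in how shDNAJC2 3 stood to the other knockdown libraries. For the 8 genes that fell at least 4-fold, the level in shDNAJC2 3 over the mean of shDNAJC2 1 and 2 had a median ratio of 2.09, with a range of 1.47 to 2.52. For the 19 genes in between the median ratio was 1.40 (0.869 to 2.08), and for the 8 that fell less than 2-fold it was 1.02 (0.967 to 1.15). The range of the 19 overlapped those of both other classes. Since shDNAJC2 3 enters both quantities, this too is a description.

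The order of the libraries was shared across most of the group. shCtrl 2 was above shCtrl 1 for all 41 genes, against 55.2% of all genes, by a median ratio of 1.18 (1.02 to 1.76) where that of all genes was 1.01. The highest ratio was that of RTP4, from only 28 and 53 counts, and the next was 1.41 for MX1. shCtrl 3 was below both other controls for 38 genes, against 46.8%, and was the lowest of the 6 libraries for 28, against 21.7%. shDNAJC2 3 was the highest knockdown library for 28 genes, against 40.3%, and shDNAJC2 1 exceeded shDNAJC2 2 for 26, against 50.1%. Every knockdown library lay below both shCtrl 1 and 2 for 38 genes, against 32.6%; the exceptions were IRF1, IFIT2 and ISG20. The genes share these libraries, so a count over genes is not a count of independent observations.

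In single libraries the same gap appears on either side of the labels. Against shCtrl 1, a level more than 2-fold lower was found for 27 of the 41 genes in shCtrl 3 (8.52% of all genes), for 26 in shDNAJC2 1 (9.49%), for 26 in shDNAJC2 2 (8.71%) and for 17 in shDNAJC2 3 (2.98%). In shCtrl 2, 0 of the 41 were more than 2-fold from shCtrl 1 in either direction, against 0.672% of all genes. Between shCtrl 3 and shDNAJC2 1, which carry different labels, 2 genes differed more than 2-fold, IFI44L and RTP4 (4.88% of the group), against 1.72% of all genes. RTP4 had 2 counts in shCtrl 3, below the floor of 3, and 6 in shDNAJC2 1. The other pairs of shCtrl 3 with a knockdown library were not counted in this way. Several genes were more than 2-fold higher in shDNAJC2 3 than in shCtrl 3, among them MX1 (102 and 33.0 CPM), PARP9 (33.0 and 11.2 CPM) and XAF1 (12.9 and 4.06 CPM).

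The rest of the pathway was read from lists of receptors, transcription factors, inhibitors and sensors, none of whose genes passed the edgeR test over 6 libraries. Before adjustment, p was under 0.05 for 1 of 9 receptors and kinases and 1 of 9 inhibitors, near the 11.3% of all genes. It was also under 0.05 for 2 of 8 other STAT and IRF genes and 5 of 16 sensors and adaptors, lists of few genes. Transcripts of the interferons themselves were scarce: of 21 ligand genes, 13 were at 0 in every library, 7 had at most 5 counts in any, and IFNE reached 55 counts. IFNB1 had 2, 5 and 0 counts in the controls and 1, 2 and 2 in the knockdown, too few to compare. Of the 9 receptor chains and kinases, 1 rose and 3 fell without shCtrl 3, where 17.8% of all genes were called higher and 17.0% lower. IFNAR1 was at 58.4, 59.5 and 56.9 CPM across shCtrl libraries, against 72.9, 64.4 and 64.0 CPM across shDNAJC2 libraries, and JAK1 at 168, 175 and 147 CPM, against 158, 148 and 160 CPM. IFNAR1 lacked the gap between shCtrl 1 and 2 and the other 4 libraries that marked the effectors. Its knockdown libraries each lay above each control. That held for 2 of the 9, IFNAR1 and IFNGR1, where 7.33% of all genes were higher without overlap. IFNGR1 was the gene that rose without shCtrl 3 (log2 fold change 0.39, edgeR adjusted p = 0.0482, against 0.33 and 0.429 over 6 libraries). For JAK1, shCtrl 1 and 2 lay above the other 4 by a small margin (log2 fold change -0.07 over 6 libraries and -0.14 without shCtrl 3, edgeR adjusted p = 0.735 and 0.266). TYK2, at 113, 113 and 75.8 CPM, against 62.9, 66.2 and 97.7 CPM, fell without shCtrl 3 (log2 fold change -0.58, edgeR adjusted p = 0.0325, against -0.41 and 0.447 over 6 libraries).

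Of 8 tested STAT and IRF genes outside the effector group, STAT3 and IRF3 fell and IRF2 rose without shCtrl 3, shares near those of all genes (17.0% lower, 17.8% higher). STAT3, a factor that answers chiefly to interleukins, was at 120, 125 and 91.1 CPM across shCtrl libraries, against 89.8, 85.2 and 86.0 CPM across shDNAJC2 libraries. Each knockdown library lay below each control, with shCtrl 3 only slightly above them. Its log2 fold change was -0.36 over 6 libraries and -0.49 without shCtrl 3 (edgeR adjusted p = 0.429 and 0.00431). In this list 2 genes, STAT3 and STAT6, were lower without overlap and 1, STAT4, was higher, beside 8.43% and 7.33% of all genes. STAT4 had only 8 to 20 counts per library, and its log2 fold change was 0.99 over 6 libraries (edgeR adjusted p = 0.429). Of 9 inhibitors of the signal, 3 fell, PIAS1, IRF2BP1 and CISH, and 1 rose, PTPN2, beside the same 17.0% and 17.8% of all genes. IRF2BP1 was at 41.7, 42.0 and 43.6 CPM in shCtrl cells, against 25.8, 30.7 and 33.5 CPM in shDNAJC2 cells. It was the 1 inhibitor whose groups did not overlap, where 8.43% of all genes were lower without overlap. Its log2 fold change was -0.50 over 6 libraries and -0.47 without shCtrl 3 (edgeR adjusted p = 0.429 and 0.0206). SOCS1, a feedback inhibitor of JAK kinases, had a log2 fold change of -1.18 with an edgeR adjusted p of 0.110, and -0.85 over 6 libraries (0.557).

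Nucleic acid sensors and adaptors showed changes in both directions: of 16 tested, 11 fell, against 17.0% of all genes, and 4 rose, against 17.8%, without shCtrl 3. Those that fell include the RNA helicases RIGI (log2 fold change -1.31) and IFIH1 (-1.37) and the synthetases OAS1 (-2.74), OAS2 (-2.77) and OAS3 (-2.05), which make the signal for RNase L (edgeR adjusted p = 0.00215, 0.00104, 0.000769, 0.000980 and 0.000571). OAS1 was at 99.95, 129 and 7.20 CPM across shCtrl libraries, against 11.7, 11.1 and 27.7 CPM across shDNAJC2 libraries, the order of libraries of MX1. Over 6 libraries these 5 were at -0.90, -0.97, -2.22, -2.25 and -1.60. Those that rose without shCtrl 3 were the DNA sensor CGAS (0.73), its adaptor STING1 (0.68), TICAM1 (0.73) and TBK1 (0.52), with edgeR adjusted p of 0.0345, 0.00464, 0.0261 and 0.00683. Over 6 libraries they were at 0.36, 0.27, 0.06 and 0.41; shCtrl 3 was the highest of all libraries for STING1 and TICAM1 and near the upper knockdown libraries for CGAS. TICAM1, an adaptor of TLR3, was at 17.5, 19.8 and 51.4 CPM in shCtrl cells, against 31.3, 38.9 and 22.6 CPM in shDNAJC2 cells, and STING1 at 47.0, 50.5 and 96.8 CPM, against 73.4, 89.6 and 70.7 CPM. TBK1, the kinase that activates IRF3, was at 32.3, 31.7 and 39.4 CPM in shCtrl cells, against 49.4, 44.3 and 44.2 CPM in shDNAJC2 cells. It was the 1 gene of the 16 whose groups did not overlap, a share near the 7.33% of all genes that were higher without overlap.

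**Figure D5:**
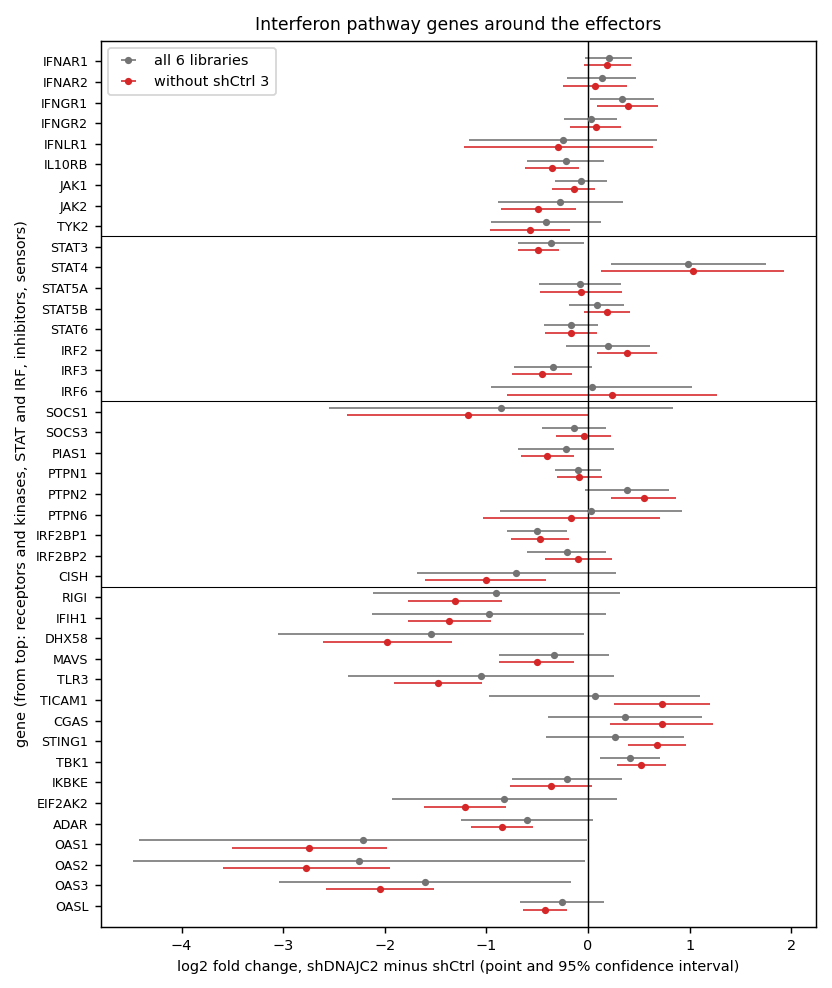
Log2 fold change, shDNAJC2 minus shCtrl, with its 95% confidence interval for receptors and kinases, other STAT and IRF factors, inhibitors, and sensors and adaptors (blocks from top), over 6 libraries (grey) and without shCtrl 3 (red). OAS1, OAS2 and OAS3, at -2.74, -2.77 and -2.05, lie furthest to the left in red.

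Markers of other cell types were read beside the effectors. Of 15 blood and immune markers, 12 had at most 10 counts in every library, and CD3E, CD3D, CD2 and MS4A1 were at 0. Their summed level was 82.2, 90.7 and 97.2 CPM in shCtrl cells, against 76.6, 85.0 and 74.6 CPM in shDNAJC2 cells, most of it CD68, a lysosomal gene also expressed outside macrophages. Of the endothelial markers, CDH5 and EMCN were at 0, and the sum, mostly TEK, was 66.8, 72.3 and 57.8 CPM in shCtrl cells, against 57.9, 56.0 and 56.2 CPM in shDNAJC2 cells. The low markers ran the other way: KDR was at 0.287, 0.305 and 3.01 CPM in shCtrl cells, against 2.19, 2.57 and 1.79 CPM in shDNAJC2 cells (log2 fold change 0.86 over 6 libraries, edgeR adjusted p = 0.618, and 2.85 without shCtrl 3, adjusted p = 0.000677), a mirror of the effectors' split of libraries. PECAM1, at 1.11, 0.687 and 1.67 CPM, against 1.46, 1.85 and 3.86 CPM, and the immune marker CSF1R, at 1.44, 1.60 and 2.26 CPM, against 2.30, 3.11 and 2.39 CPM, also rose without shCtrl 3 (1.46 and 0.77, adjusted p = 0.0364 and 0.0399). The renal markers summed to 253, 267 and 191 CPM and to 179, 178 and 187 CPM. Among them CDH6, a cadherin of the renal tubule, followed the interferon-stimulated genes (123, 127 and 17.7 CPM, against 26.0, 22.8 and 42.8 CPM). From shCtrl 1 and 2 to each other library, CDH6 fell by more CPM than the sum did. Of 6 renal markers tested without shCtrl 3, CDH6 was called lower (log2 fold change -2.02, edgeR adjusted p = 0.000502). CA12 was called higher (0.57, adjusted p = 0.00583), and 4 were not called. CA12 levels were 25.2, 26.1 and 35.3 CPM for the control hairpin and 39.2, 34.9 and 39.9 CPM for the knockdown. The part of such markers in the results was not tested.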

How the data were processed

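Enriched mRNA of 6 ACHN cultures was sequenced as paired-end libraries, per the labels' protocols. The submitters deposited 1 table of raw read counts per gene; builds GRCh38 and hg38 are named in the submitters' processing notes, and the aligner, counter and use of strand are not given in the sources used here. Counts were used as deposited in edgeR 4.0.16 (R 4.3.3): filterByExpr, TMM scaling, quasi-likelihood F test, two-sided, Benjamini-Hochberg adjustment over all genes tested, threshold 0.05. Groups came from the sample titles, and 3 shCtrl were compared with 3 shDNAJC2 libraries. DESeq2 1.42.0, limma-voom (limma 3.58.1), other scalings and filters, a replicate block and each library left out were alternatives. The 41 effectors could all be named, other pathway genes from lists grouped by role; the members and lists were chosen with earlier results of these data known. A few genes are not reported here. Gene positions and shared stretches came from GENCODE 29 (GRCh38) and promoter windows from RefSeq. Lengths per kilobase are those of the longest annotated transcript.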

Additional observations from a re-analysis of the deposited data

How the results depend on the processing

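Over 6 libraries no effector gene was called by edgeR under RLE scaling, total counts only, no low-count filter, a minimum of 1 CPM in 3 libraries (which left 40 of the 41 genes, RTP4 dropping out), limma-voom or DESeq2; of all genes DESeq2 called 6 higher and 29 lower, and gave DNAJC2 a log2 fold change of -0.73 (adjusted p = 0.0364). Leaving out each library in turn, 0 to 2532 genes were called higher and 0 to 2413 lower, among the effectors 0 to 1 and 0 to 35, among receptors and kinases 0 to 1 and 0 to 3, among the other STAT and IRF genes 0 to 1 and 0 to 2, among inhibitors 0 to 1 and 0 to 3, and among sensors and adaptors 0 to 4 and 0 to 11. Every count above 0 among these came from leaving out shCtrl 3; the cause was not tested. DNAJC2 ranged from -0.81 to -0.60 (log2) over the same fits and was -0.65 without shCtrl 3 (edgeR adjusted p = 0.00799), and the effectors' median from -1.24 to -0.58. Small values changed sign: IRF1 ranged from -0.11 to 0.12 (0.10 without shCtrl 3), IFIT2 from -0.092 to 0.13 (-0.03 without shCtrl 3, and -0.026 with total counts only), and HERC5 from -0.38 to 0.022; the cause was not tested. With the palindromic motif in place of the GAAA pair the share of promoters with a match was 31.4% instead of 68.6%. Genes with few counts, such as RTP4, are limited by depth.

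The replicate numbers were shared between the groups, but same-numbered libraries deviated from their group means in opposite directions (r over genes -0.38, -0.52 and -0.66). For shCtrl 3 with shDNAJC2 1 and 2, r was 0.37 and 0.59, and for shCtrl 1 and 2 with shDNAJC2 3 it was 0.67 and 0.57. Deviations from a group mean sum to 0, so these values depend on each other. They cannot tell whether same-numbered libraries were paired, and the labels do not say that they were. With a replicate block edgeR called 0 effectors and 0 genes of the table, 2 effectors were lower at an unadjusted p under 0.05, and the smallest adjusted p was 0.713. The share of all genes at that unadjusted p was not taken for this fit.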
